A study of Mus musculus with 12 samples.

Results

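Genes that repair damaged DNA were examined in alveolar type II (ATII) cells, the surfactant-making stem cells of the lung alveolus, after bleomycin and with or without the acetyltransferase p300. A list of 39 DNA repair genes was matched by gene symbol among the 23238 symbols of the count tables, and all 39 were found. The 12 libraries came from 12 mice, with 3 mice in each of 4 groups. Con was Spc-p300 f/f mice given PBS, BLM was the same genotype given bleomycin at 4 mg/kg into the trachea, KO was Spc-p300 d/d mice given PBS, and KOBLM was Spc-p300 d/d mice given the same dose of bleomycin. In Spc-p300 d/d mice a tamoxifen-inducible Cre driven by the Spc promoter deletes a floxed exon of p300, so the deletion is limited to cells that use this promoter. The sample labels give tamoxifen at 10 mg/kg at 8 weeks of age for all 12 mice and call the Con mice wild type. The paper's supplement speaks of vehicle or tamoxifen for sorted cells of Spc-p300 f/f mice. For RNA sequencing it names an inbred strain beside the knockout mice. Whether Con and BLM mice received tamoxifen or carried the floxed gene is thus not settled, and an effect of either cannot be told apart from p300 loss. Cells were sorted as CD74+ EpCAM+ cells, and the sources used here do not state whether the mice of a group shared a litter or a day, so the p-values measure the spread between these mice.

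Bleomycin cuts both strands and single strands of DNA and oxidises bases, and different enzymes mend each kind of lesion. Double-strand breaks are signalled by the kinases ATM and ATR and are joined either directly by end joining or by copying an intact sister strand in homologous recombination. Oxidised bases and single-strand breaks are handled by glycosylases, PARP enzymes and ligases, while mismatch and nucleotide excision repair remove mispaired and bulky lesions. Many of the genes for recombination and for replication-linked repair are transcribed most in dividing cells.

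Total counts ran from 7005005 to 11153154 per library and the number of genes with a count from 6847 to 13838. The library labelled BLM 3 stood apart. It had the largest total and the fewest genes, and its rank correlation with the other BLM libraries was 0.593 and 0.598, beside 0.777 to 0.909 within the other groups and between BLM 1 and BLM 2. Its counts also went against the label of a sorted ATII sample. Of a list of 28 pluripotency genes, 19 were at their highest in BLM 3, and the list summed to 3804 CPM there and to 728 to 1536 CPM in the other 11 libraries. The stem cell factor Nanog had 2228 counts in BLM 3 and at most 20 in any other library, Sox2 3225 and at most 40, and Dppa5a 8058 and at most 5. Every BLM value below therefore rests on a group in which 1 of 3 libraries may not hold the cells its label names. For comparisons with BLM, the number of the repair genes past the threshold and their median are given with and without it. Permutation tests, summed levels and overlaps between groups include it. ATII markers summed to between 1283 and 4767 CPM (counts scaled to a common library size, here after TMM normalisation). Macrophage markers summed to between 8028 and 35297 CPM in 11 libraries and to 786 CPM in BLM 3. In each of those 11 libraries the macrophage sum was above the ATII sum, so they too may hold many cells that are not ATII cells. The share of such cells was not tested. The 10 lymphocyte markers summed to between 27.8 and 844 CPM and the 8 endothelial markers to between 71.2 and 1549 CPM. The ATII gene Lamp3 had 0 counts in BLM 3, KOBLM 2 and KOBLM 3, and Sftpc had 5 counts in KOBLM 3. The ATII sum of KOBLM 3 was 4496 CPM, of which Lyz2 made 3619, Cd74 674 and Napsa 165. Each remaining ATII marker had at most 17.1 CPM there, with Sftpb and Slc34a2 at 0 and Epcam at 3.27. Other libraries were alike in this. Lyz2 and Cd74 made 3031 and 655 of 4051 CPM in KOBLM 2, 966 and 551 of 1736 in KO 2, and 2170 and 444 of 3242 in Con 3. In BLM 3 they made 7.10 and 572 of 1283 CPM. The ATII sum can thus rest on few of its genes and does not measure the share of ATII cells. The part of these other cell types in the repair gene values was not tested, and in sorted bulk cells a lower level in every cell cannot be told apart from fewer cells of the expressing kind. Ep300, the gene of p300, averaged 109 ± 53.4 CPM in Con and 143 ± 46.3 in KO (SD, n = 3 each). Reads taken next to the poly(A) tail lie outside the deleted exon, so these counts do not check the deletion, and KO and KOBLM are named by their labels.

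The promoters of 6 of these genes carry letters of a kind found at cell cycle genes, and they are printed because the library with the highest repair gene sum also had the highest sum of proliferation genes. RefSeq promoter windows on GRCm38.p6, 250 bases before to 50 bases after the start, were at hand for 31 of the 39 genes (35 windows). Letters of the E2F type (TTTGGCGC, TTTCCCGC, TTTGCCGC or TTTCGCGC, on either strand) stood in 6 of the 35 windows, 17.1%, beside 2.26% of all 32851 windows. E2F factors switch on genes at the entry into DNA synthesis. The matches lay in Chek2 (chr5:110839811-110839858), Brca2 (chr5:150522433-150522480), Lig1 (chr7:13278832-13278875), Xrcc6 (chr15:82016303-82016350), Mdc1 (chr17:35841462-35841509) and Msh6 (chr17:87975045-87975092), with the windows read on the plus strand, which is that of all 6 genes, and the matching letters in capitals. The motif as spelled lies on the plus strand in 2 of them, Mdc1 and Msh6, and on the minus strand in 4:
Chek2: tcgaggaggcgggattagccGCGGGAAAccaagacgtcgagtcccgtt
Brca2: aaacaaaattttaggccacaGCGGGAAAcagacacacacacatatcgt
Lig1: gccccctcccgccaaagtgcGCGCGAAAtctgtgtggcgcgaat
Xrcc6: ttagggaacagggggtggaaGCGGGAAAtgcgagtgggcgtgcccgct
Mdc1: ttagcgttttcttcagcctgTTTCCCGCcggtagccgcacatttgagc
Msh6: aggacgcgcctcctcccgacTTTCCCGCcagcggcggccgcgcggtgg

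The genes with these letters did not move as a set. Brca2, Lig1 and Msh6 were at their highest in BLM 3, while Chek2, Mdc1 and Xrcc6 had 0 counts there. CCAAT, the NF-Y box, stood in 48.6% of the repair gene windows and 37.4% of all windows, and the CHR letters TTTGAA in 2.86% and 17.9%. A match of letters is a description of the window and not a binding site.

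Every repair gene was detected, and all 39 passed the filter on low counts, but most were low and uneven. Because each transcript gives reads from its 3′ end only, counts do not grow with transcript length. In this respect alone the CPM of different genes can be set side by side. For 16 of the 39 genes another gene lies at the 3′ end, as described below, so the order of genes is uncertain. Ogg1 was listed highest with a mean of 272 ± 152 CPM over the 12 libraries (SD, n = 12), but its counts cannot be told apart from those of its neighbour Camk1, as described below. Next was Lig1 with 119 ± 129, Rad50 with 91.0 ± 67.5 and Parp1 with 69.9 ± 60.5. Xrcc2 was the lowest at 1.14 ± 1.99 CPM, then Palb2 at 2.73 ± 3.58 and Ercc1 at 2.77 ± 6.01. Neighbours in this order differed by less than their spread. Only 10 genes had a count in every library: Atm, Rad50, Trp53bp1, Rnf8, Rnf168, Parp1, Parp2, Lig1, Apex1 and Ogg1. The 8 genes of single-strand break and base excision repair made up 50.6% of the summed level, and 35.8% when Ogg1 was left out of the sums.

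**Figure D1:**
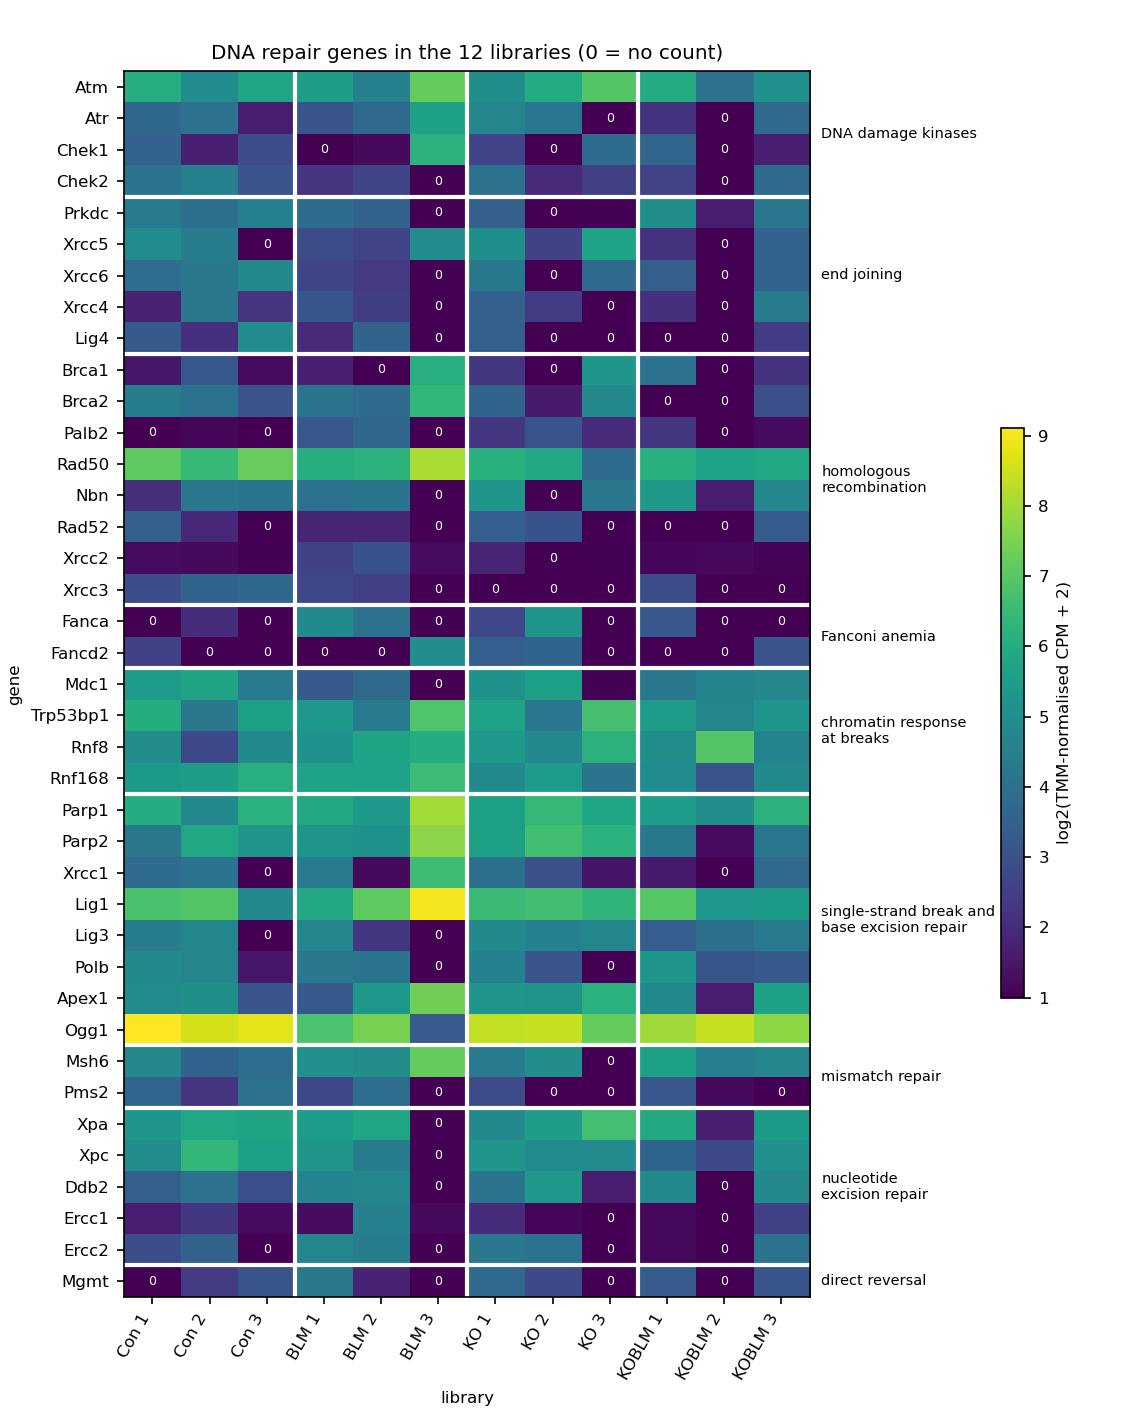
Level of the 39 DNA repair genes (rows, grouped by role) in the 12 libraries (columns), as the log2 of TMM-normalised CPM plus 2, with a 0 where a library has no count. Ogg1 is bright in all libraries except BLM 3, and BLM 3 and KOBLM 2 each hold 19 genes without a count.

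The same gene often had no count in a mouse and many in another mouse of its group. A count of 0 in a mouse beside 100 or more counts in another mouse of the same group occurred in 30 of the 156 combinations of repair gene and group, 19.2%, and in 16.6% of those of all tested genes. BLM held 12 of the 30 and KO 10. BLM 3 and KOBLM 2 each had 19 repair genes (48.7%) at 0 counts, where 50.9% and 33.0% of all tested genes were at 0. The remaining libraries had between 1 and 13. In the fit the median biological coefficient of variation of the repair genes was 1.64, beside 1.35 for all tested genes.

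BLM 3 also held the highest levels. Of the 39 genes, 15 (38.5%) were at their highest there, beside 15.9% of all tested genes, namely Atm, Atr, Chek1, Brca1, Brca2, Rad50, Fancd2, Trp53bp1, Rnf168, Parp1, Parp2, Xrcc1, Lig1, Apex1 and Msh6. The sum of the 39 genes was 2399 CPM in BLM 3 and 694 to 1470 CPM in the other libraries. For a list of 30 proliferation genes the sums were 5089 CPM in BLM 3 and 499 to 1315 CPM in the others. Among them Top2a had 20076 counts in BLM 3 and at most 1889 in any other library. The pluripotency genes were at their highest in the same library, as given above. The part of the proliferating or pluripotent state in the repair gene levels of BLM 3 was not tested.

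**Figure D2:**
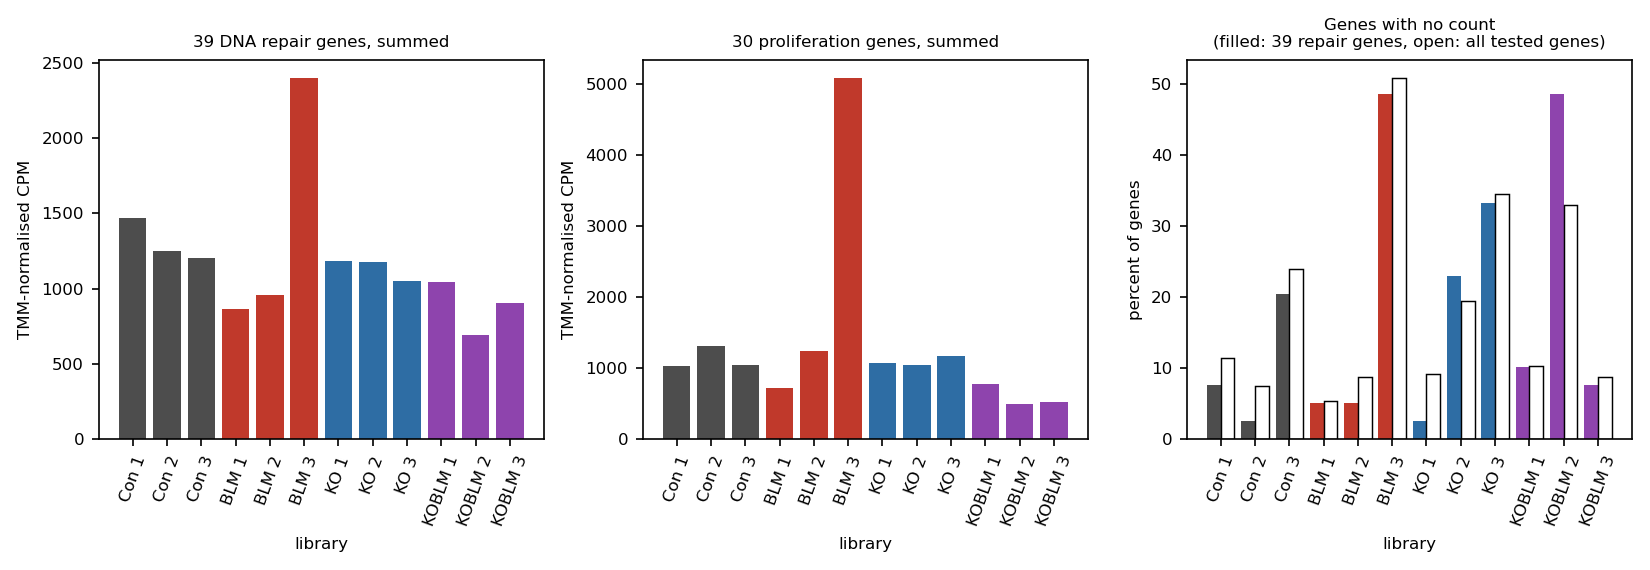
Summed TMM-normalised CPM of the 39 repair genes (left) and of 30 proliferation genes (middle), and the percent of genes without a count (right, filled for the repair genes, open for all 13054 tested genes) in each library. BLM 3 reaches 2399 and 5089 CPM in the sums and has 48.7% of repair genes at 0.

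The effect of bleomycin on the repair genes was asked in each genotype and over both. A gene passed the threshold when it differed by more than 1.5-fold with a p below 0.05 before adjustment in edgeR's quasi-likelihood test. In BLM against Con 1 of the 39 genes passed, Ogg1, which fell, or 2.56% of the list where 4.27% of all 13054 genes tested passed. In KOBLM against KO 1 gene passed, Parp2, which fell, against a background of 1.69%. Averaged over both genotypes 0 of the 39 genes passed in edgeR, against 4.47%, and 0 had an unadjusted p below 0.05. DESeq2 passed 1 there, Ogg1, against 6.43% of all genes. Without BLM 3 the counts were 1 (Ogg1) against 5.45%, 1 (Parp2) against 3.07% and 1 (Ogg1, lower) against 7.16%.

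After adjustment for all genes tested, 0 genes of the whole table passed in edgeR in any comparison. With the fold change alone, in either direction, more of the list than of all genes lay past 1.5-fold in each comparison. The shares were 82.1% (32 of 39) beside 64.9% in BLM against Con, 66.7% (26) beside 55.2% in KOBLM against KO, 59.0% (23) beside 51.8% over both genotypes, 69.2% (27) beside 52.5% in KO against Con, 82.1% (32) beside 64.1% in KOBLM against BLM, and 84.6% (33) beside 71.9% in the interaction. The spread between mice was also wider for the list, as the coefficients of variation above show.

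With BLM 3 in the fit the list did not keep a direction after bleomycin. In the fits without BLM 3 its median was below 0, and below that of all genes, in each genotype and over both. The median log2 fold change of the 39 genes was 0.53 in BLM against Con, where the median of all tested genes was -0.08, and 23 of the 39 had a positive value (47.3% of all genes). Without BLM 3 it was -0.09 beside 0.05 for all genes, with 16 of 39 positive. In KOBLM against KO the median was -0.63 beside 0.08, and 10 of the 39 were positive where 53.8% of all genes were. In a fit of the 2 libraries per group with the most genes, which leaves out BLM 3 and KOBLM 2, that median was -0.19 with 15 of 39 positive. Over both genotypes the median was 0.09 beside 0.03, with 21 positive (51.3% of all genes), and without BLM 3 it was -0.33 beside 0.10. With the 2 libraries per group it was -0.52 in BLM against Con and -0.15 over both genotypes, beside 0 and 0.05 for all genes.

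The question whether p300 loss changes the repair genes was asked without and with bleomycin. In KO against Con 1 gene passed, Xrcc3, which fell, against 1.44% of all genes. The median log2 fold change there was 0.20 beside -0.09, with 23 positive (44.9% of all genes). It turned to -0.25, beside -0.02 for all genes, with the 2 libraries per group. With BLM 3 left out of the fit 2 genes passed, Xrcc3 and Rad50, against 2.51%. In KOBLM against BLM 1 gene passed, Parp2, which fell, against 3.16%. The median was -1.24 beside 0.10 for all genes, with 13 of 39 positive (52.9% of all genes). Without BLM 3 it was -0.24 beside -0.06, and 0 of 39 genes passed against 3.34%. With the 2 libraries per group it was 0.08 beside 0.01, the opposite direction. BLM against Con and KOBLM against BLM share the BLM libraries, so these opposite medians are not independent.

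The interaction asks whether bleomycin acted differently in the genotypes. Parp2 was the gene that passed, against 2.82%, and the median was -0.96 beside 0.23, with 14 positive (55.3% of all genes). Without BLM 3 the median was -0.21 beside 0.06, and the gene that passed was Ogg1, against 4.63%. With the 2 libraries per group the median was 0.18 beside 0.06, again the opposite direction.

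**Figure D3:**
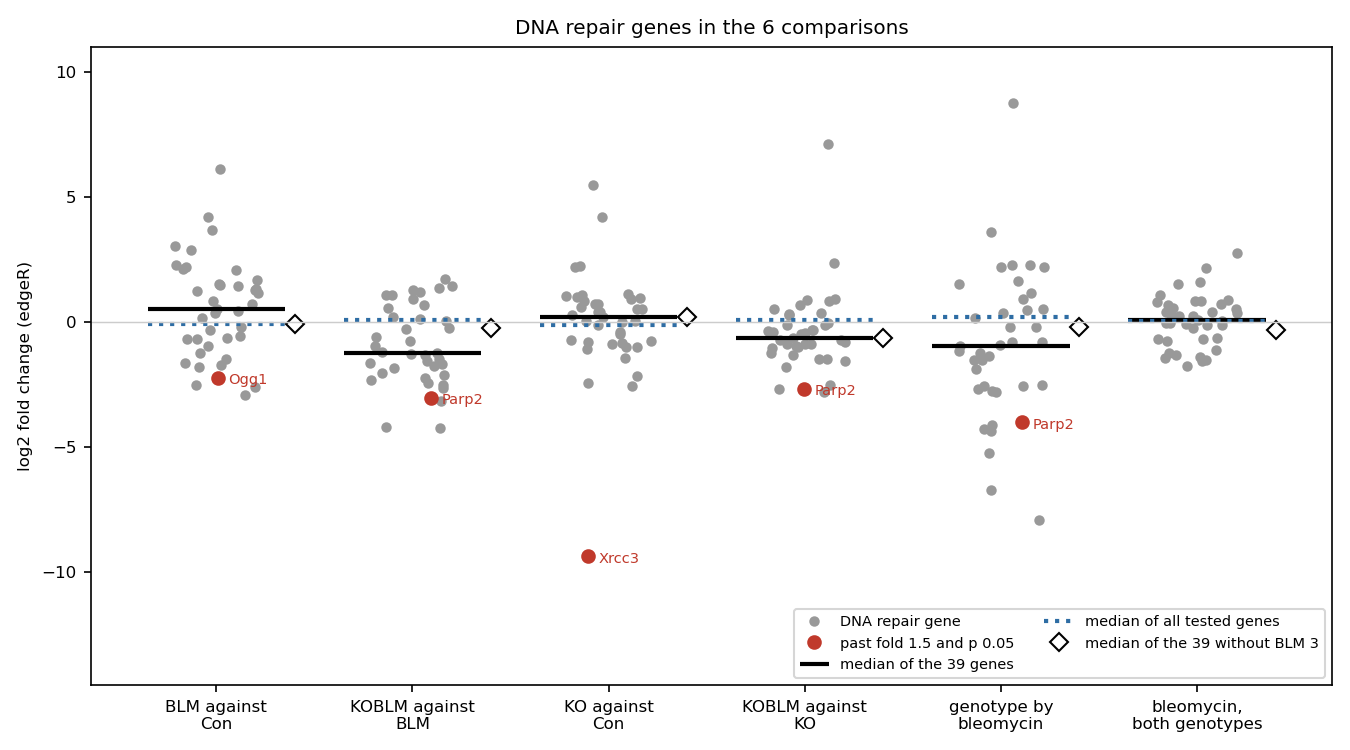
Log2 fold change of each of the 39 repair genes (points, edgeR) in the 6 comparisons, with the median of the 39 (black line), of all tested genes (dotted line) and of the 39 without BLM 3 (diamond). The black line lies at -1.24 for KOBLM against BLM and the diamond at -0.24, and the red points are the genes past the threshold, of which Xrcc3 has a fitted value against 3 libraries at 0 counts.

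Ogg1, the glycosylase that cuts oxidised guanine out of DNA, was the repair gene with the smallest p in BLM against Con. It lies on chr6:113326972-113335068, plus strand, of GRCm38. Its level was 552, 381 and 439 CPM in Con, 110.5, 175 and 8.02 in BLM, 329, 333 and 143 in KO, and 248, 335 and 209.9 in KOBLM. All 3 BLM libraries lay below all 3 Con libraries and below all 3 KOBLM libraries, and KO and KOBLM overlapped. In edgeR the log2 fold change from Con to BLM was -2.23 (standard error 0.79, adjusted p = 0.995), and without BLM 3 it was -1.68 and still past the threshold. The exact two-sided permutation test of the mean CPM gave p = 0.1, the smallest that 3 mice against 3 allow. The interaction was 2.20 (standard error 1.08, adjusted p = 1.0) and did not pass, but it passed under 8 of 18 alternatives, among them without BLM 3 at 1.66 and without BLM 2 at 2.93. Over both genotypes the log2 fold change was -1.12 (standard error 0.54, adjusted p = 1.0). It did not pass, but it did under 9 of 18 alternatives, among them without BLM 3 at -0.85, without BLM 2 at -1.48 and without KO 3 at -1.27.

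The counts listed for Ogg1 cannot be told apart from those of its neighbour. Camk1, a calcium-dependent kinase gene on the opposite strand, overlaps the last 945 bases of Ogg1, and the sources used here do not state whether strand was used in counting. Camk1 had 4731, 4004 and 6030 counts in Con where Ogg1 had 4343, 3534 and 5000, and 895, 1508 and 113 in BLM where Ogg1 had 761, 1194 and 113. Across the 12 libraries the Ogg1 count was between 79.2% and 100% of the Camk1 count, with a median of 84.0%, and it was never the higher. Camk1 itself fell by 2.12 on the log2 scale from Con to BLM (standard error 0.80, edgeR adjusted p = 0.995) and passed the threshold. The Ogg1 values are therefore values of the Ogg1 and Camk1 locus.

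**Figure D4:**
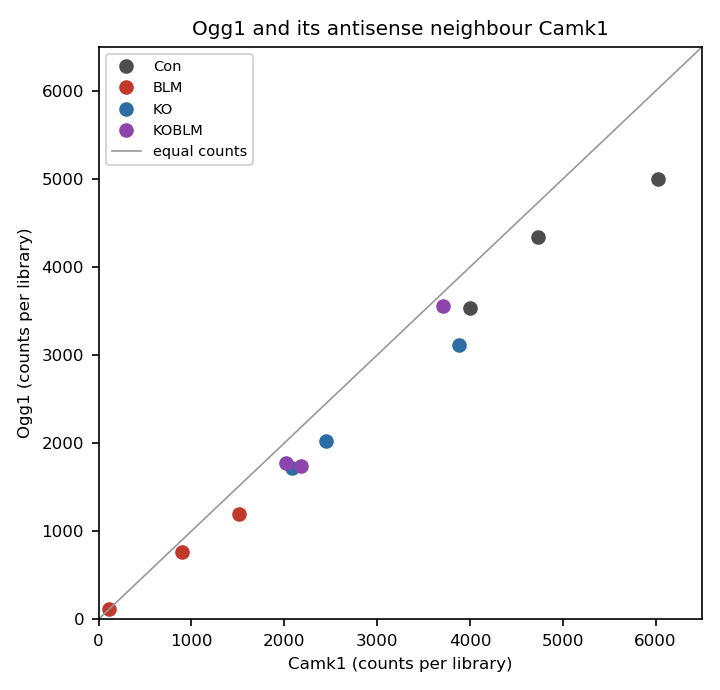
Counts of Ogg1 against counts of Camk1, the gene on the opposite strand of its 3′ end, in each of the 12 libraries, with the line of equal counts. All points lie on or just under the line, from 113 and 113 in BLM 3 to 5000 and 6030 in Con 3.

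Other genes share their 3′ ends in the same way. The last 500 bases of 16 of the 39 genes carry another annotated gene, on the opposite strand for 15 of them, and for 11 of them the neighbour was in the count tables. Xpa had a median of 96.2% of the count of Ncbp1, Lig3 107% of that of Rffl and Trp53bp1 111% of that of Tubgcp4. Xrcc3 had at most 4.87% of the count of Klc1. The shares ranged widely between libraries, from 0 to 147% for Xpa, 42.6 to 660% for Lig3 and 66.3 to 588% for Trp53bp1. These genes did not track their neighbours in every library as Ogg1 did, but in some libraries the counts were equal or close. Trp53bp1 and Tubgcp4 had 1647 counts each in BLM 3. Lig3 and Rffl had 149 each in KOBLM 2 and 292 and 293 in KO 3, and Xpa and Ncbp1 had 510 and 508 in Con 2. Fanca never exceeded Zfp276 and had 0 to 100% of its count, with a median of 37.4%. Strand use in counting is not known for these genes either, so their values are uncertain.

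Parp2, a sensor of DNA nicks that builds poly(ADP-ribose) chains, was the repair gene with the smallest p in KOBLM against BLM, in KOBLM against KO and in the interaction. It lies on chr14:50807841-50821301, plus strand, with no other gene at its 3′ end. Its level was 16.7, 56.5 and 37.2 CPM in Con, 35, 33.5 and 206 in BLM, 47.4, 98.8 and 69.95 in KO, and 17.4, 0.377 and 16.1 in KOBLM. All 3 KOBLM libraries were below all BLM and all KO libraries, while Con and BLM overlapped.

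From KO to KOBLM the log2 fold change of Parp2 was -2.67 (standard error 1.19, edgeR adjusted p = 1.0). It missed the threshold under 6 of 14 alternatives, among them without KO 2 at -2.42, without KO 3 at -2.69, without KOBLM 2 at -2.10, without KOBLM 3 at -3.01 and in the model of these groups alone at -2.67. From BLM to KOBLM it was -3.04 (standard error 1.21, adjusted p = 1.0), and it missed the threshold under 4 of 13 alternatives, among them at -1.60 without BLM 3, at -0.99 with the 2 libraries per group and at -3.06 in the model of BLM and KOBLM alone. The interaction was -4.0 (standard error 1.64, adjusted p = 1.0). It missed the threshold under 6 of 18 alternatives, among them without BLM 3 at -2.57, without Con 1 at -3.65, without Con 3 at -4.0, without KO 2 at -3.70 and with the 2 libraries per group at -2.02. For Parp2 the direction was the same in all of these fits, and the call was not.

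**Figure D5:**
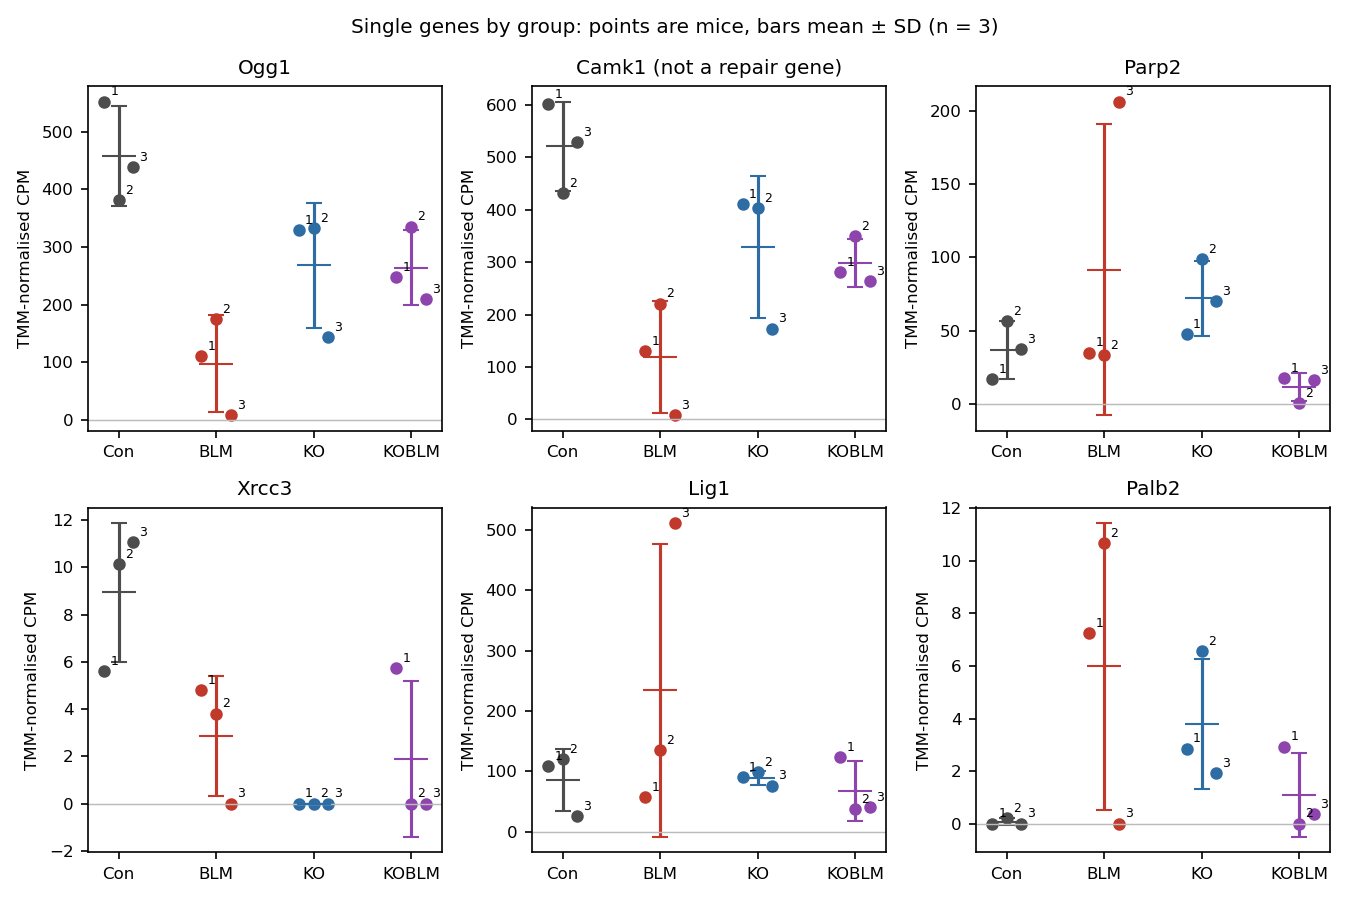
TMM-normalised CPM of Ogg1, its neighbour Camk1, Parp2, Xrcc3, Lig1 and Palb2 by group, where points are mice numbered as in the labels and bars are the mean and SD of 3. Ogg1 and Camk1 show the same pattern, and the BLM means of Parp2 and Lig1 are set by BLM 3 at 206 and 511 CPM.

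The other genes of single-strand break and base excision repair did not pass the threshold. Lig1, the ligase that joins Okazaki fragments and seals repaired strands, had 109, 120.5 and 26.3 CPM in Con, 57.0, 136 and 511 in BLM, 90.4, 99.1 and 76.7 in KO, and 124, 38 and 40.4 in KOBLM. The groups overlapped, and BLM 3 was the single high library. Its log2 fold change from Con to BLM was 1.48 (standard error 0.84, edgeR adjusted p = 0.997), which passed at 1.94 without BLM 1 and was 0.18 without BLM 3. From BLM to KOBLM it was -1.81 (standard error 0.85, adjusted p = 1.0), which passed under 7 of 13 alternatives, among them at -2.27 without BLM 1, at -2.08 without BLM 2 and at -2.53 without KOBLM 1, and was -0.51 without BLM 3. Parp1, the main poly(ADP-ribose) polymerase, ran from 25.4 to 82.4 CPM in 11 libraries and was 254 in BLM 3. Apex1, the endonuclease that cuts abasic sites, ran from 1.13 to 70.4 CPM and was 163 in BLM 3, and all 3 KO libraries (36.2, 34.5 and 70.4) were above all Con libraries (28.2, 31.1 and 6.85). Xrcc1, the scaffold of this pathway, ran from 0 to 18.1 CPM and was 94.4 in BLM 3. Lig3, its partner ligase, had 27.7, 21.7 and 24.3 CPM in KO and 8.65, 14.1 and 17.9 in KOBLM, which did not overlap. Polb, the polymerase that fills the gap, ran from 0 to 36.7 CPM with a median of 11.5 over the 12 libraries.

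Double-strand breaks are sensed by a small set of kinases and marked in chromatin by a second set of proteins, and 0 of the 8 genes of these groups passed the threshold in any comparison. Atm, the kinase first called to breaks, had 64.7, 29.1 and 53 CPM in Con and 43.4, 21.1 and 145 in BLM. Atr, the kinase for stalled forks, ran from 0 to 23.6 CPM in 11 libraries and was 48.3 in BLM 3. Chek1, its target kinase, ran from 0 to 12.1 CPM and was 72.7 in BLM 3. Chek2, the target kinase of ATM, had 15.4, 21.2 and 6.85 CPM in Con and 2.61, 4.54 and 0 in BLM, so its BLM libraries lay below Con. Mdc1, the scaffold that binds the phosphorylated histone at breaks, was also lower in each BLM mouse, with 7.69, 12.0 and 0 CPM beside 41.8, 50.8 and 18.2 in Con and 17.2, 22.9 and 25.3 in KOBLM. Rnf8, the ubiquitin ligase that acts on it, had 33.8, 50.9 and 62.9 CPM in BLM and 30.5, 4.86 and 26.9 in Con, the higher group being BLM. Rnf168, which extends the ubiquitin mark, had 49.1, 49.9 and 91.5 CPM in BLM and 29.2, 6.60 and 26.8 in KOBLM, also without overlap. Trp53bp1, which favours end joining, ran from 16.3 to 103 CPM in 11 libraries and was 117 in BLM 3.

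The 5 end joining genes gave low counts, and 0 of the 5 passed the threshold in any comparison. Their summed level was 68.9, 68.8 and 80.0 CPM in Con and 31.5, 31.0 and 28.3 in BLM, and these 6 values did not overlap. In KO it was 75.5, 7.23 and 61.6 CPM and in KOBLM 44.2, 1.04 and 57.3, which overlapped. The BLM 3 value came from Xrcc5 alone, since the other 4 genes had 0 counts in that library. Sums of other groups of repair genes also separated BLM from Con, with BLM the higher. For the Fanconi anemia genes they were 4.07, 2.16 and 0 CPM in Con and 26.6, 14.2 and 29.5 in BLM. These BLM values came from Fanca alone in BLM 1 and BLM 2 and from Fancd2 alone in BLM 3. For the mismatch repair genes they were 35.2, 12.7 and 27.8 CPM in Con and 37.2, 43.3 and 145 in BLM. The mismatch repair sums of Con 1 and BLM 1 were close, and that of BLM 3 came from Msh6 alone. The sums of the remaining groups of genes overlapped. How often sums of other genes separate BLM from Con was not tested. Prkdc, the catalytic subunit of DNA-PK, had 18.2, 13.9 and 20.7 CPM in Con, 12.6, 9.81 and 0 in BLM and 9.00, 0 and 0.0832 in KO. Xrcc6, the Ku70 subunit that clasps broken ends, had 13.0, 17.2 and 27.6 CPM in Con and 4.50, 3.22 and 0 in BLM. Its partner Xrcc5 (Ku80) ran from 0 to 49.99 CPM, Xrcc4, the scaffold of the ligation step, from 0 to 18.0, and Lig4, the ligase, from 0 to 28.9.

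Homologous recombination genes included the most uneven values. Xrcc3, a recombination gene on chr12:111803192-111813873, minus strand, had 44, 94 and 126 counts in Con, 33, 26 and 0 in BLM, 0, 0 and 0 in KO, and 41, 0 and 0 in KOBLM. All KO libraries were without a count, and 3 counts per library were taken as the floor. Con was then at least 25.3-fold higher than KO and passed the threshold (edgeR adjusted p = 1.0). The exact permutation test of the mean CPM gave p = 0.1, the smallest possible. The call was lost without Con 2, without KO 1, without KO 2 and without KO 3. KOBLM was at least 5.40-fold higher than KO through the single library KOBLM 1 and did not pass. Neither the interaction nor the effect of bleomycin over both genotypes passed (edgeR adjusted p = 1.0 in each), and no fold is read from their fitted values because KO is at 0.

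Palb2, which links BRCA1 to BRCA2, had 0, 2 and 0 counts in Con, 50, 73 and 0 in BLM, 27, 40 and 23 in KO, and 21, 0 and 3 in KOBLM. All 3 KO libraries were above Con. On summed counts the ratio of BLM to Con was 63.1 (95% interval 17.1 to 527) and that of KO to Con 46.6 (12.5 to 390), intervals that cover counting error only. Neither comparison passed in edgeR (adjusted p = 0.995 and 1.0). Brca2, the partner of PALB2 in recombination, had 15.4, 12.3 and 81.4 CPM in BLM, 10.1, 0.986 and 26.3 in KO and 0, 0 and 5.81 in KOBLM, so KOBLM lay below BLM and overlapped KO. Its log2 fold change was -4.24 from BLM to KOBLM (standard error 2.23, edgeR adjusted p = 1.0) and -2.68 from KO to KOBLM (standard error 2.08, adjusted p = 1.0). Neither passed, and both passed without KOBLM 3, the KOBLM library that has counts of it.

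Rad50, the core of the complex that trims broken ends, had 137, 85.2 and 148 CPM in Con and 69.3, 57.4 and 12.3 in KO, which did not overlap. Its log2 fold change was -1.41 (standard error 0.77, edgeR adjusted p = 1.0) and did not pass. It passed at -1.41 when BLM 3, which is not in that comparison, was left out of the fit. Its partner Nbn ran from 0 to 39.1 CPM with a median of 16. Brca1, the ubiquitin ligase that starts recombination, ran from 0 to 37.6 CPM in 11 libraries and was 68.1 in BLM 3. Rad52, an annealing factor, ran from 0 to 9.41 CPM. Xrcc2, another recombination gene, had 28, 43 and 5 counts in BLM and at most 15 in any other library, and all 3 BLM libraries were above all KOBLM libraries, which had 1, 3 and 1 counts. The Fanconi anemia genes, which unhook crosslinks, were at 0 counts in many libraries. Fanca had 0 counts in 6 and Fancd2 in 7 of the 12, with highest values of 35.7 CPM in KO 2 and 29.5 CPM in BLM 3.

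Mismatch repair, nucleotide excision repair and direct reversal gave no gene past the threshold. Msh6, a sensor of mismatches, had 24.8, 10.0 and 13.0 CPM in Con and 32.2, 30.2 and 145 in BLM, with all BLM libraries the higher. Over both genotypes its log2 fold change was 1.52 (standard error 1.05, edgeR adjusted p = 1.0). Pms2, its downstream nuclease, ran from 0 to 14.8 CPM. Xpc, which finds bulky lesions, had 29.2, 81.6 and 47.2 CPM in Con, 37.3, 19.8 and 0 in BLM, 35.5, 28.8 and 28.3 in KO, and 10.2, 4.90 and 32.3 in KOBLM. Ddb2, a lesion sensor and a known p53 target, had 8.90, 14.5 and 5.88 CPM in Con, 22.8, 25 and 0 in BLM, 15.2, 39.5 and 1.08 in KO, and 26.1, 0 and 26.1 in KOBLM, and BLM 3 and KOBLM 2 were the libraries with no count of it. Xpa, a scaffold of excision, ran from 0 to 102 CPM. Ercc1, part of the nuclease, was at most 21.4 CPM, Ercc2, a helicase, at most 24.5, and Mgmt, which strips alkyl groups off guanine, at most 16.4.

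In the exact permutation test of mean CPM over both genotypes, with the treatment permuted within genotype, 4 of the 39 genes had a p of at most 0.05, namely Msh6 (p = 0.035, higher after bleomycin) and Xpc (p = 0.035), Xrcc6 (p = 0.045) and Ogg1 (p = 0.05), all lower. This share of the list compares with 7.47% of all genes tested, and none of the 4 passed in edgeR. Groups that did not overlap were found for 8 repair genes in BLM against Con, where 15.9% of all genes had them. The higher ones were Rnf8 and Msh6, and the lower ones Chek2, Prkdc, Xrcc6, Xrcc3, Mdc1 and Ogg1. All of the lower ones except Ogg1 had 0 counts in BLM 3, where 50.9% of all tested genes were at 0. For KOBLM against BLM there were 6 (10.7% of all genes), with Mdc1 and Ogg1 higher and Brca2, Xrcc2, Rnf168 and Parp2 lower. For KO against Con there were 6 (9.09%), with Palb2 and Apex1 higher and Prkdc, Rad50, Xrcc3 and Ogg1 lower, and for KOBLM against KO there were 2 (6.86%), Parp2 and Lig3, both lower. Over both genotypes, where the 6 bleomycin libraries all had to lie above or all below the 6 PBS libraries, there were 0 repair genes and 0.437% of all genes.

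The rest of the repair machinery was read from a list of 109 further genes, all tested. In BLM against Con 3 rose and 0 fell. Gtf2h3, a subunit of the repair and transcription factor TFIIH, had at most 0.108 CPM in Con and 4.50, 0.146 and 47.7 CPM in BLM. On summed counts, 704 in BLM and 1 in Con, the ratio was 722 (95% interval 129 to 28551, counting error only). BLM 3 held 672 of these counts, BLM 1 held 31 and BLM 2 held 1. Without BLM 3 the ratio was 66.5 (11.1 to 2708). Rif1, which guards broken ends, had 51.0, 43.4 and 38.6 CPM in Con and 86.1, 87.5 and 560.3 in BLM (log2 fold change 2.48). Rpa2, which coats single-stranded DNA, had 272 CPM in BLM 3 and at most 58.8 in any other library (2.26). The BLM libraries of Rif1 lay above all Con libraries, as was so or the reverse for 15.9% of all genes. For Gtf2h3 BLM 2 and Con 2 each held 1 count, under the floor of 3, so their order was set by scaling alone. Without BLM 3 Gtf2h3 still passed, while Rif1 (0.97) and Rpa2 (0.70) did not. In KOBLM against BLM 3 fell, namely Clspn, the adaptor of the checkpoint kinase CHK1 (-6.43), Rif1 (-2.11) and Rpa2 (-2.27), of which Clspn (-5.64) passed without BLM 3 and Rif1 (-0.60) and Rpa2 (-0.70) did not. In KO against Con Gtf2h3 rose, with 10.6, 24.0 and 59.7 CPM in KO, and in KOBLM against KO Clspn fell (-6.83), with 0.279, 0 and 0.363 CPM in KOBLM. These are 2, 0 and 3 counts, at or under the floor of 3, so no exact fold is read from the fitted values of Clspn against KOBLM. In the interaction Fancb was positive and Gtf2h3, Pole, Clspn and Rpa3 negative, and over both genotypes Exo1, Gtf2h3 and Rif1 rose and Fancf and Clspn fell. Without BLM 3 the calls of Fancb and Rpa3 in the interaction and of Gtf2h3 and Rif1 over both genotypes were lost. The adjusted p in edgeR was above 0.99 for each of these calls with all libraries and at least 0.597 without BLM 3. The 109 genes passed at 2.75% in BLM against Con and 4.59% over both genotypes, beside 4.27% and 4.47% of all genes. In the interaction the share was 4.59% beside 2.82%, and in KOBLM against BLM 2.75% beside 3.16%. It was 0.917% in KO against Con and in KOBLM against KO, beside 1.44% and 1.69%.

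Targets of p53, the transcription factor that answers DNA damage, gave a reference for the same libraries. Their summed level was between 1555 and 1583 CPM in Con, 2580, 2008 and 1213 in BLM, between 1160 and 1539 in KO and between 1920 and 2964 in KOBLM. Of the 21 that were tested, 2 rose and 1 fell over both genotypes, 14.3% beside 4.47% of all genes. Without BLM 3, 4 rose and 2 fell, where 7.16% of all genes passed. In BLM against Con 1 rose and 2 fell, and 12 of the 21 had a positive fold change. Cdkn1a, the inhibitor that stops the cell cycle, had 445, 467 and 214 CPM in Con, 1315, 916 and 325 in BLM, 403, 249 and 225 in KO, and 821, 1118 and 633 in KOBLM. Its log2 fold change over both genotypes was 1.37 (standard error 0.39, edgeR adjusted p = 1.0). Cdkn1a was the target that rose in BLM against Con, and it made 1315 of the summed 2580 CPM in BLM 1. Gdf15, another target, had 286, 363 and 407 CPM in Con and 70.8, 169 and 19.4 in BLM.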

How the data were processed

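RNA of sorted ATII cells from 12 mice was sequenced from the 3′ end. The authors deposited raw counts per gene symbol, without normalization. Bowtie2, edgeR and mm10 are named in the submitters' processing notes, without versions or roles, and the counting program and annotation are not given in the sources used here. For 35 symbols listed more than once (79 entries) the counts were added up. Groups were taken from the sample labels.

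The low-count filter was filterByExpr (minimum count 10, minimum total 15) in edgeR 4.0.16, and 13054 genes were kept. Counts were scaled by TMM and fitted with a quasi-likelihood model of the 4 groups with 8 residual degrees of freedom. Tests were two-sided, and standard errors were taken as the log2 fold change over the root of F. A gene passed when it changed more than 1.5-fold with p below 0.05 before adjustment, as in the study, and Benjamini-Hochberg adjusted values cover all tested genes. CPM of single genes were compared by exact permutation. The detection floor was 3 counts, and intervals at 95% and floors cover counting error only. The test was also run on simulated data. An outcome was required there only at a spread far below the common biological coefficient of variation of these data (1.44). That run therefore does not check the test at their spread.

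The 39 genes and all other lists were chosen with earlier results of these data known. All 39 are named with their levels. Tests are printed for genes past the threshold and, where fewer than 3 passed, for those with the smallest p until 3 were given. Of the other repair genes those past the threshold are named. Camk1 and the other neighbours, Top2a and Cdkn1a were named after their values were seen, as were the genes printed by group and those named by the absence of overlap. Positions are from GENCODE M21 and promoter windows from RefSeq, both on GRCm38.

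Alternatives were DESeq2 size factors, library size alone, no count filter, an adjusted p, the fold alone, a replicate block, DESeq2 1.42.0, a model of only the 2 groups compared and the omission of each library. Added after the data were seen were the 2 libraries per group with the most genes, the permutation within genotype, and the omission of BLM 3 where it is not compared. The work was done in R 4.3.3 and in Python 3.11.15 (pandas 2.3.3, numpy 2.4.6, matplotlib 3.10.9, scipy 1.17.1).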

Additional observations from a re-analysis of the deposited data

Results flagged for a closer look

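The effect of bleomycin on Parp2 differed between the genotypes by -4.0 on the log2 scale in edgeR's interaction test (standard error 1.64, adjusted p = 1.0), where 2.82% of all tested genes passed the same threshold. Parp2 had 131, 523 and 424 counts in Con, 241, 229 and 2909 in BLM, 448, 601 and 841 in KO, and 125, 4 and 133 in KOBLM. Without BLM 3 the difference was -2.57 and did not pass.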

How the results depend on the processing

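The number of repair genes past the threshold stayed small under every alternative with an unadjusted p. Given in the order BLM against Con, KOBLM against BLM, KO against Con, KOBLM against KO, interaction and both genotypes, the reported counts were 1, 1, 1, 1, 1 and 0. With an adjusted p they were 0 in each, and with the fold change alone 32, 32, 27, 26, 33 and 23. DESeq2 gave 2, 4, 2, 2, 3 and 1. DESeq2 size factors and library size alone each gave 2 for KOBLM against BLM, 2 for the interaction and 1 over both genotypes, and the fit without a count filter 3, 2 and 1. Models of only the 2 groups compared gave 0, 0, 2 and 0 for the paired comparisons of groups. With the 2 libraries per group with the most genes the counts were 2 for BLM against Con, 0 for KOBLM against BLM and 3 over both genotypes, where the permutation test gave 4. Leaving out each library in turn gave 1 to 2, 0 to 3, 0 to 2, 0 to 2, 0 to 2 and 0 to 1. The cause of these shifts was not tested. For most of the alternatives the share of all genes that passed is not given here. Their counts are therefore not read as above or below that share.

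Same-numbered libraries of different groups did not deviate together (correlations of -0.15 to 0.0873, with 0 of 18 above 0.1). Such correlations cannot show whether same-numbered mice shared a litter or a day, and the main fit used no pairing. With the replicate number as a block, the counts were 1, 2, 1, 0, 1 and 1, and the calls of Parp2 were lost. Single genes were followed for Brca2, Lig1, Msh6, Ogg1, Palb2, Parp2, Rad50 and Xrcc3, in the comparisons where their tests are printed. They kept their direction under all alternatives except Lig1 in BLM against Con, at -0.27 with 2 libraries per group, and Xrcc3 over both genotypes. The fitted value of Xrcc3 was -0.83 without KOBLM 1, which leaves KO and KOBLM without counts of it. Its range of -0.83 to 3.05 gives no fold because KO is at 0. Ogg1 in BLM against Con passed under 12 of 13 alternatives and missed in the model of the 2 groups alone. Depth was 7005005 counts in the smallest library, and its part in these results was not tested.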
